A study of Mus musculus with 2 samples.

Results

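Isolated heart regions were stretches of the mouse genome, selected by the authors to lie outside known genes, that they listed as transcribed more strongly in embryonic heart than in limb (tissue-specifically transcribed regions, TSTRs) and that had no neighbour on that list within 10000 bp. They were chosen by position alone, as rows whose gap to the nearest other heart TSTR on the same chromosome exceeded 10000 bp. Of the heart TSTRs, 356 were isolated and the other 478 were clustered, and the whole series held 1912 regions, of which 576 limb TSTRs were isolated by the same rule. The regions came from total RNA sequencing of CD-1 strain mouse embryos at embryonic day 11.5. Heart was compared with limb, and each tissue was 1 sample made from tissue pooled over several embryos, with ribosomal RNA removed before sequencing. No genetic change or treatment is given for either tissue. Heart and limb were separate pools and libraries, so tissue, pool and library cannot be told apart. The deposited counts carry no strand, although the libraries kept it. The authors removed regions overlapping known genes, so the tissue labels were not checked with marker mRNAs, although some listed regions overlap exons of the annotation used here.

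Enhancers are stretches of DNA that raise the transcription of genes at a distance, and many of them are themselves transcribed into short-lived enhancer RNAs. Intergenic transcription also comes from promoters read away from their gene, from transcripts that run past the end of a gene, from unannotated genes and from processed copies of mRNAs. In the heart at this stage, factors such as GATA, T-box, NKX2-5, MEF2 and HAND proteins switch on contractile, ion channel and signalling genes in the beating muscle.

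The sequences shown first belong to the isolated regions with the most heart reads and at most 1 limb read whose closest protein-coding start was that of a heart gene. They are the first 5 by heart reads, leaving out a chromosome whose sequence is not printed here, and the 300 bases around the centre of each are given from the NCBIM37 genome (mm9), plus strand, with positions counted from 1. Capitals mark matches, on either strand, to short motifs of heart and muscle factors and to the polyadenylation signal AATAAA. A match describes the letters and is not evidence of a binding site.
Kcnj5, chr9:32119852-32120151: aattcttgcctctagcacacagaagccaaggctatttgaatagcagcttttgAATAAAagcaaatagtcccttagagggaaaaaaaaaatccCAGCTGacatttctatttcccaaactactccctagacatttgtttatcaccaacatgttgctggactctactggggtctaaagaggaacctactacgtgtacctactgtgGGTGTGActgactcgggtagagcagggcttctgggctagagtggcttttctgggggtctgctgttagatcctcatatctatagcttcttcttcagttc
Nppb, chr4:147361902-147362201: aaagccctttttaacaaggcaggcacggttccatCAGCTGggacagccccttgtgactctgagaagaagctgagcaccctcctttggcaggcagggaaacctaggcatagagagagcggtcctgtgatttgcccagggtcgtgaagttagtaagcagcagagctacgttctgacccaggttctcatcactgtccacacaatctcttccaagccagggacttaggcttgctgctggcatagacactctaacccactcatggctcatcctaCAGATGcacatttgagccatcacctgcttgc
Tbx20, chr9:24579038-24579337: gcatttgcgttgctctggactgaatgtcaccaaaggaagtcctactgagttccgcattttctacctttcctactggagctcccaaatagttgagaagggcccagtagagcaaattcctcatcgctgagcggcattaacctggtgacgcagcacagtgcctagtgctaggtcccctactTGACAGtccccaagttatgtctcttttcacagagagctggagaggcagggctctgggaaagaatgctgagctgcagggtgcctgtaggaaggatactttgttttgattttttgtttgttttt
Actc1, chr2:113914059-113914358: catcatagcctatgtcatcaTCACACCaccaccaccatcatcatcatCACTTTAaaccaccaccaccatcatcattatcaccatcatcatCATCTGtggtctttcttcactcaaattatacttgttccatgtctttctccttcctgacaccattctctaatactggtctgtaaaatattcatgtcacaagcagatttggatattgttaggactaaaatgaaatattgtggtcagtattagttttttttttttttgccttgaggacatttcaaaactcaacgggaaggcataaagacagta
Csrp3, chr7:56085178-56085477: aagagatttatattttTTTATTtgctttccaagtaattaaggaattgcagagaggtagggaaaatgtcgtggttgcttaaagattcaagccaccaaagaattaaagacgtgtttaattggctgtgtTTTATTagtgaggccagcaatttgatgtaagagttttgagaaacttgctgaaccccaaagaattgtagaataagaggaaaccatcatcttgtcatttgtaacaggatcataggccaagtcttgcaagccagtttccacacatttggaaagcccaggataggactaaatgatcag
The window near Kcnj5 held a myogenic E-box (CAGCTG), a T-box motif (GGTGTGA) and AATAAA. The Nppb window held a myogenic E-box and the E-box bound by HAND and other bHLH factors (CATCTG). The Tbx20 window held a MEIS motif (TGACAG), the Actc1 window an NKX2-5 motif (TNAAGTG), a T-box motif and a HAND E-box, and the Csrp3 window AATAAA in 2 places.

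The second set of sequences belongs to the 4 isolated regions with the most heart reads among those that held an uninterrupted run of at least 30 A or 30 T. They are shown because 8 of the 10 isolated regions with the most heart reads held such a run. Each is the whole region, plus strand of mm9, named by the gene with the closest protein-coding start, and the capitals mark the run.
Gm10110, chr14:89648004-89648221: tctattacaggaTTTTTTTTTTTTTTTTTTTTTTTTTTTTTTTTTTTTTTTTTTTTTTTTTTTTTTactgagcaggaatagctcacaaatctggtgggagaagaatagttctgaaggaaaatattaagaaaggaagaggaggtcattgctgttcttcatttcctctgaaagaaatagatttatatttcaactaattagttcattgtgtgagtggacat
Myf5, chr10:106876851-106877071: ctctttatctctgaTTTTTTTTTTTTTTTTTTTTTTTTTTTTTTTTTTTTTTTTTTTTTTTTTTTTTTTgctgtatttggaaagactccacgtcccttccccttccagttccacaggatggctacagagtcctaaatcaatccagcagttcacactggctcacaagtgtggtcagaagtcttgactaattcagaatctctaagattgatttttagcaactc
Slc22a23, chr13:34447207-34447413: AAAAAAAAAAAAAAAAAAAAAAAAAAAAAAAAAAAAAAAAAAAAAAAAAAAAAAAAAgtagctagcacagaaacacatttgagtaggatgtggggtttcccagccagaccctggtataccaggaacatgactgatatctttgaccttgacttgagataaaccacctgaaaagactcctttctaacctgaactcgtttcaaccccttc
Tecrl, chr5:83818985-83819195: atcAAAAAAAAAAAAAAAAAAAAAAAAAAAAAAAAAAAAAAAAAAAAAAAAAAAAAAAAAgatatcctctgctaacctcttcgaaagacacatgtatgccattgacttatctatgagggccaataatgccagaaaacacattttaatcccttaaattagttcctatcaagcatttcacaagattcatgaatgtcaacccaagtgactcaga
The runs were 54, 55, 57 and 57 bases long. All of them lay within 50 bases of the end of the region with the lower coordinate.

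A further set shows isolated regions that matched another gene or the mitochondrial genome. These are the 2 matching regions of at most 300 bp with the most heart reads, and the capitals mark the matching stretch.
Il17ra, chr6:120410723-120410988: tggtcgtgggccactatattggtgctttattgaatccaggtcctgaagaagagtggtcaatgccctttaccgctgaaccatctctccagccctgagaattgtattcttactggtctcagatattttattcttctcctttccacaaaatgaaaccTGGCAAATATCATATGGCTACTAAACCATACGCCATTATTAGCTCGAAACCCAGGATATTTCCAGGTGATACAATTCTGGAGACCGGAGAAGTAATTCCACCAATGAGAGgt
Galntl4, chr7:118941020-118941263: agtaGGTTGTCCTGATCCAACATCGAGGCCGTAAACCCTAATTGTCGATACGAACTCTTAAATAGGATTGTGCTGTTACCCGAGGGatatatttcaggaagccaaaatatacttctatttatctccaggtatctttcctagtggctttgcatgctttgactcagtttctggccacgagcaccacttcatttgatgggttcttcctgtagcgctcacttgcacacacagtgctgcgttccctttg
The region near Il17ra shared 110 bases at 95.5% identity with the coding sequence of Ndufb6, which encodes a subunit of respiratory complex I. The region near Galntl4 aligned over 83 positions at 92.8% identity with positions 2368 to 2450 of the mitochondrial genome, inside the gene of the large mitochondrial ribosomal RNA.

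Isolated heart TSTRs were shorter than clustered ones and less strongly biased to heart. Their median length was 305.5 bp (quartiles 257.8 and 609.3), against 705 bp (309.5 and 1103) for clustered heart TSTRs. They held a median of 29.5 heart reads and 5 limb reads, against 46 and 3 in clustered regions. Median heart RPKM (reads scaled to region length and to the total reads of the library) was 0.292 in isolated and 0.289 in clustered regions, whereas median limb RPKM was 0.0653 and 0.0267. The tissue-specificity index, the difference of heart and limb RPKM divided by their sum, had a median of 0.625 in isolated and 0.835 in clustered regions. Limb TSTRs showed the same contrast in length, with medians of 340 bp (isolated) and 757 bp (clustered). Their index, taken as limb minus heart, had medians of 0.625 (isolated) and 0.592 (clustered). All sets come from the same 2 libraries, so these values describe regions and have no replicate error.

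The authors' two-proportion z-test (two-sided, threshold 0.01) compares the share of heart reads with the share of limb reads that fall in a region. It called 236 of the 356 isolated regions higher in heart (66.3%), against 78.5% over all heart TSTRs. The totals behind this call were those implied by RPKM, and the totals the authors used may differ. With totals scaled to the reads of all listed regions, which raise the heart to limb ratio of every region, the test called 340 of the 356. Totals that would lower the ratios were not tried. The exact test of edgeR, with an assumed variation of 0.4 between samples, called 76. Shares over all heart TSTRs under these settings are not given, so these counts describe the settings and not isolated regions in particular. The same z-test called 574 of the 576 isolated limb TSTRs higher in limb (99.7%), against 501 of the 502 clustered limb TSTRs (99.8%). A heart to limb ratio of reads per total of at least 4 was met by 159 isolated regions (44.7%), against 58.8% over all heart TSTRs. For regions with 0 limb reads the ratio was taken against a floor of 3 limb reads. The test compares 2 libraries and not 2 tissues, and since the authors state that they chose the list with it, these calls describe the list. In tissue pools, fewer cells of a type and less RNA per cell cannot be told apart. No limb read was seen in 69 isolated regions (19.4%) and in 25.3% of clustered regions. A count of 0 allows up to 3 reads, or 1.56e-06% of the limb total.

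**Figure D1:**
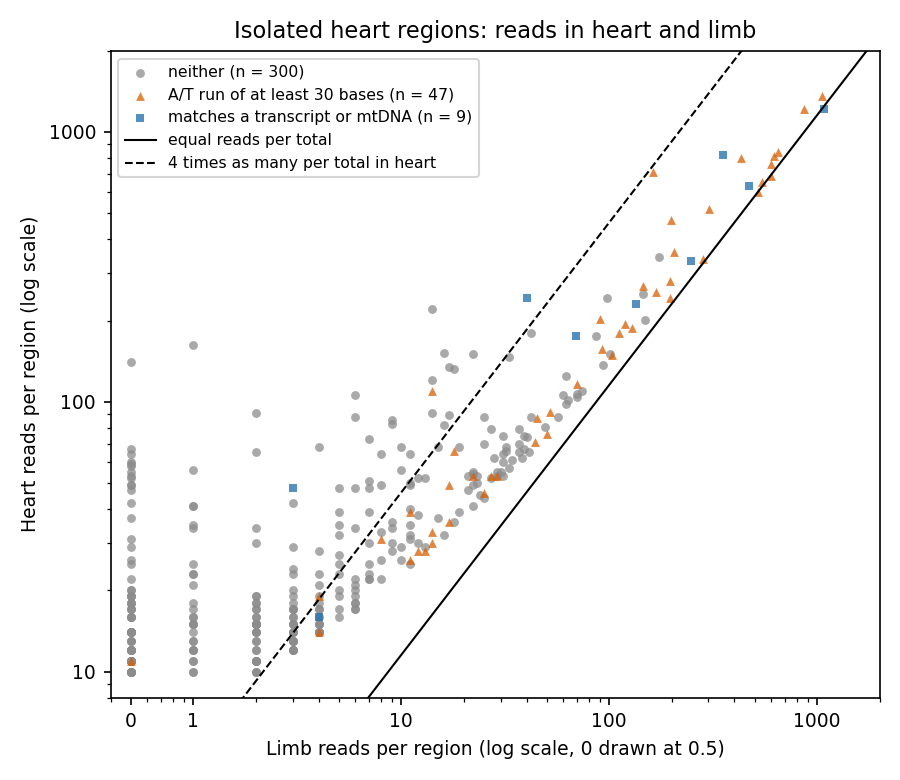
Heart reads (vertical, log scale) against limb reads (horizontal, log scale, 0 drawn at 0.5) of the 356 isolated heart regions, 1 point per region and 1 pool per tissue. Regions with a long A/T run (47 triangles) and regions matching a transcript or the mitochondrial genome (9 squares) include all of the 10 regions with the most heart reads, while 68 of the 69 regions at 0 limb reads have neither feature.

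A long A/T run was found in 47 isolated heart TSTRs (13.2%), in 1 of 478 clustered heart TSTRs (0.209%), and in 34 isolated limb TSTRs (5.90%). The longest run had 80 bases, and the median of the 47 was 46. The base was T in 29 regions and A in 18. A T run lay within 50 bases of the lower-coordinate end in 27 regions, and an A run within 50 bases of the higher-coordinate end in 11. The other 9 regions had neither orientation. In 43 of the 47 the run lay within 50 bases of either end.

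These 47 regions took a large share of the reads. They held 13415 of the 29493 heart reads in isolated regions, 45.5% (95% exact binomial interval 44.9 to 46.1). In limb they held 8889 of 14798 reads, 60.1% (59.3 to 60.9). The intervals cover counting error only. Of the 10 isolated regions with the most heart reads, 8 held such a run and the other 2 matched a transcript.

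The region on chromosome 14 shown above, far from any protein-coding start, had 1359 heart and 1057 limb reads, the most heart reads of any isolated region. The region near Myf5, a myogenic transcription factor of skeletal muscle, had 1214 heart and 860 limb reads and lay 46119 bp from the start of the gene. The region near Slc22a23 had 840 heart and 645 limb reads. The heart to limb ratios of these 3 regions lay between 1.11 and 1.22, close to equal reads per total.

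The 5 highest heart RPKM values, from 15.7 to 28.0, all belonged to regions with a run. They included the regions near Tecrl (817 heart and 623 limb reads) and near Pdha2 (802 and 429). The largest ratio among the 10 regions with the most heart reads was at chr17:73333155-73333382, which had 710 heart and 162 limb reads and a ratio of 3.79 (95% exact interval 3.19 to 4.53). That region held a run of 52 bases and lay 65511 bp from the start of Lbh, a gene named for limb bud and heart.

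Regions with a run were short, weakly biased to heart and far from genes. Their median length was 221 bp, and 43 of the 47 were at most 250 bp long. The median tissue-specificity index was 0.225 and the pooled heart to limb ratio of reads per total was 1.31. The z-test called 22 of them (46.8%, against 78.5% over all heart TSTRs), and 2 reached a 4-fold ratio (58.8% over all). Their median distance to the closest protein-coding start was 151200 bp, against 25016 bp for isolated regions with neither a run nor a match. Alignments had been extended to the mean fragment length before regions were called, and the shortest isolated region, at 202 bp, was little longer than such a fragment. The part of the runs in the read counts was not tested.

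Matches elsewhere in the genome were found for 9 isolated regions, with at least 90% identity to a coding sequence of at most 5 genes or to the mitochondrial genome, for 7 isolated limb TSTRs and for no clustered TSTR. The highest count was at chr7:147501495-147501862, 6639 bp from the start of the olfactory receptor gene Olfr525, with 1216 heart and 1083 limb reads. It shared 217 bases at 97.7% identity with 3110003A17Rik. The Ndufb6 match near Il17ra had 821 heart and 352 limb reads, a ratio of 2.02 (95% exact interval 1.78 to 2.29). The mitochondrial match near Galntl4 had 633 heart and 472 limb reads.

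Further matches covered most or part of a region. A region of 1030 bp on chromosome 5 aligned over its whole length with Kat2b, a histone acetyltransferase gene, at 96.9% identity, and overlapped the annotated pseudogene Kat2b-ps. It had 242 heart and 40 limb reads, a ratio of 5.24 (3.74 to 7.51). Matches to Ubac1 (333 heart and 247 limb reads), Mrpl15 (230 and 135) and Prelid2 (176 and 69) had ratios between 1.17 and 2.21. The remaining matches, to Cpne8 (48 heart and 3 limb reads) and Zfp800 (16 and 4), were in regions with few reads. Repetitively mapped reads were excluded by the authors. A read of a near-identical copy may still have been lost or placed at the other site, so these counts are uncertain.

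**Figure D2:**
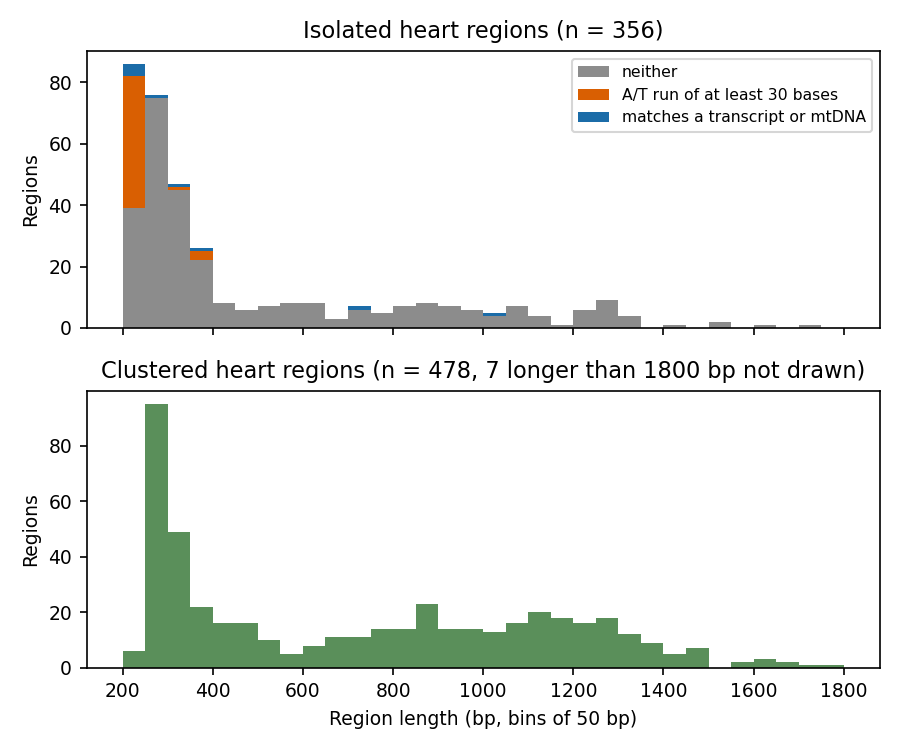
Number of heart regions (vertical) by length in bins of 50 bp (horizontal), isolated regions above and clustered regions below. The first bin, up to 250 bp, holds 86 isolated regions, of which 43 have a long A/T run and 4 a match, and 7 clustered regions.

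With the 56 regions with a run or a match set aside, 300 isolated regions remained, and they held 12363 heart and 3504 limb reads. Their pooled heart to limb ratio was 3.05, against 1.73 for all isolated regions and 4.01 for clustered ones. Their median tissue-specificity index was 0.677 and their median length 331.5 bp, between the values of all isolated and of clustered regions. The z-test called 209 of the 300 (69.7%) and 155 (51.7%) reached a 4-fold ratio, again below the 78.5% and 58.8% over all heart TSTRs. No limb read was seen in 68 of them (22.7%).

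**Figure D3:**
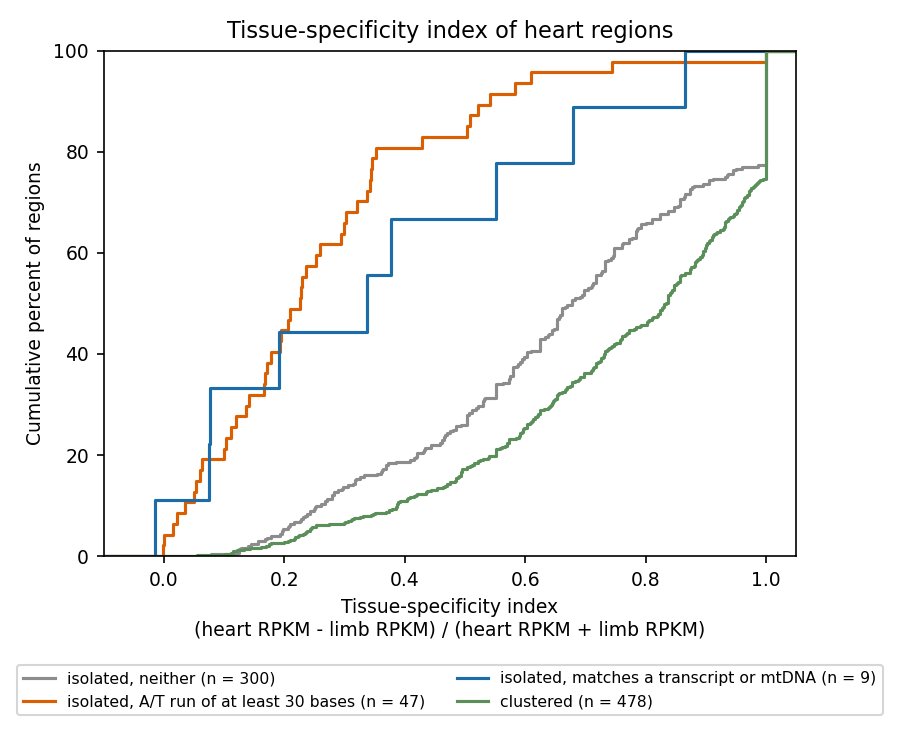
Cumulative percent of heart regions (vertical) by tissue-specificity index (horizontal), where 0 means equal RPKM in heart and limb and 1 means no limb read. Isolated regions with a long A/T run (median 0.225) lie far to the left of isolated regions with neither feature (0.677) and of clustered regions (0.835).

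Among the 300, the most heart reads were found 626 bp beyond the end of Grb10, an adaptor protein of insulin receptor signalling, in a region with 343 heart and 174 limb reads (ratio 1.71, 95% exact interval 1.42 to 2.06). A region 2489 bp upstream of D5Ertd579e had 221 and 14 reads (ratio 13.7, 7.97 to 25.4), and a region 1321 bp upstream of Irf2bp2, a transcriptional corepressor gene, had 180 and 42 (ratio 3.71, 2.64 to 5.32). Near Txlnb, a taxilin of muscle, there were 106 heart and 6 limb reads 1364 bp beyond the end of the gene, a ratio of 15.3 (6.80 to 42.6).

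The region near Srl, which encodes the calcium-binding protein sarcalumenin, had 146 heart and 33 limb reads (ratio 3.83, 2.61 to 5.77), and that near Lrrc10, a leucine-rich repeat protein of heart muscle, 82 and 16 (ratio 4.44, 2.58 to 8.12). The Lrrc10 region lay closer to another gene, 813 bp beyond the end of Cct2. Rbm24, an RNA-binding regulator of muscle splicing, had isolated regions 4149 bp upstream (19 heart and 0 limb reads) and 869 bp beyond its end (23 and 1). Grb10, Irf2bp2, Txlnb, Srl, Lrrc10, Cct2 and Rbm24 were named after their values were seen.

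Distances to genes were spread more widely in isolated than in clustered regions. The median distance to the nearest edge of a protein-coding gene was 4600 bp in isolated and 7479 bp in clustered regions, and it was 2525 bp in the 300 without a run or match. The third quartiles ran the other way, at 44433 and 38824 bp, and the closest protein-coding start was beyond 100 kb for 25.8% of isolated and 22.2% of clustered regions. Of the isolated regions, 213 lay beyond the 3′ end of the nearest gene, 136 before its 5′ end and 7 inside it (1.97%, against 8.79% of clustered regions). Within 5 kb, 126 lay beyond a 3′ end and 47 before a 5′ end, which is 35.4% and 13.2% of isolated regions against 27.8% and 6.49% of clustered regions. Isolated limb TSTRs were still closer to genes, with a median of 1527 bp and 29.3% within 5 kb before a 5′ end. Without strand, transcripts running out of a gene, reads away from its promoter and separate transcripts cannot be told apart.

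**Figure D4:**
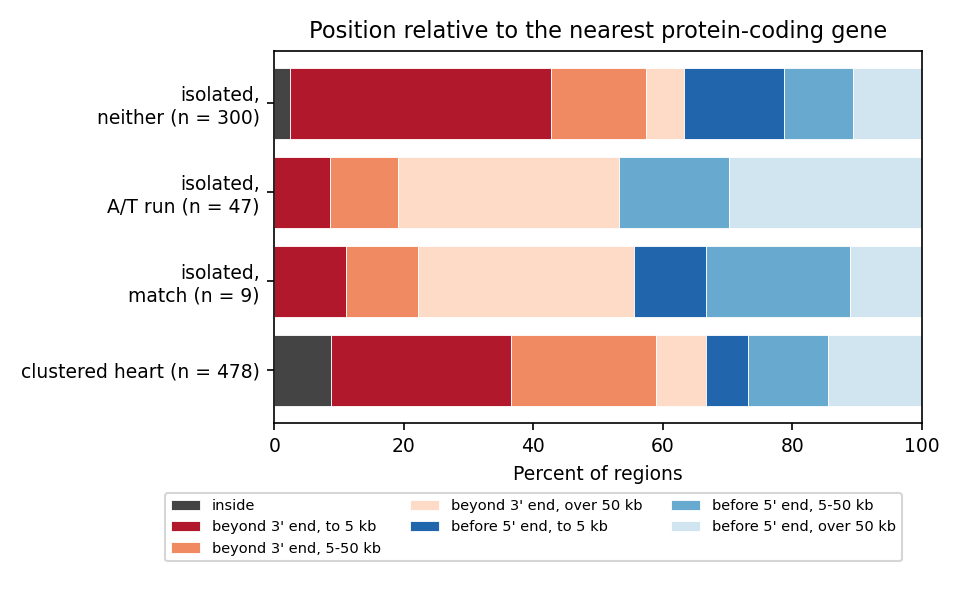
Percent of regions (horizontal, stacked) by position relative to the nearest protein-coding gene, for clustered heart regions and for isolated regions with a match, with an A/T run or with neither. Red shades are beyond the 3′ end and blue shades before the 5′ end, from dark (to 5 kb) to light (over 50 kb). Isolated regions with neither feature have the widest dark red segment, 40.3% within 5 kb beyond a 3′ end, against 8.51% of regions with an A/T run.

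Close to starts, 28 isolated regions (7.87%) lay within 1 kb of a protein-coding start, against 4.80% of all heart TSTRs. The share was 2.51% in clustered heart and 21.2% in isolated limb TSTRs. All 28 lay upstream, but the authors had removed regions overlapping known genes, which takes out most positions downstream of a start. The list included Prkg1 (689 bp upstream), a cGMP-dependent protein kinase, with 88 heart and 6 limb reads and a ratio of 12.7 (95% exact interval 5.61 to 35.5). The region 31 bp upstream of Cmya5, which encodes a muscle protein also called myospryn, had 30 heart and 12 limb reads. Near Nr1d1, a nuclear receptor of the circadian clock, the region 210 bp upstream had 62 heart and 28 limb reads. Prkg1, Cmya5 and Nr1d1 were named after their values were seen.

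The closest protein-coding start belonged to a heart gene in 37 isolated regions (10.4%), covering 30 genes of 190 on 5 lists. The same lists accounted for 59 clustered heart TSTRs (12.3%) and for 35 limb TSTRs (3.25%). They make up 0.855% of protein-coding genes, which is a share of genes and not of regions. The lists were chosen with earlier results of these data known, so these shares are a description and were not tested. Of the 37 regions, 29 were called by the z-test (78.4%), against 78.5% over all heart TSTRs, and 26 (70.3%) reached a 4-fold ratio, against 58.8%. Their median tissue-specificity index was 0.879, against 0.733 over all heart TSTRs. No limb read was seen in 15 of them.

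**Figure D5:**
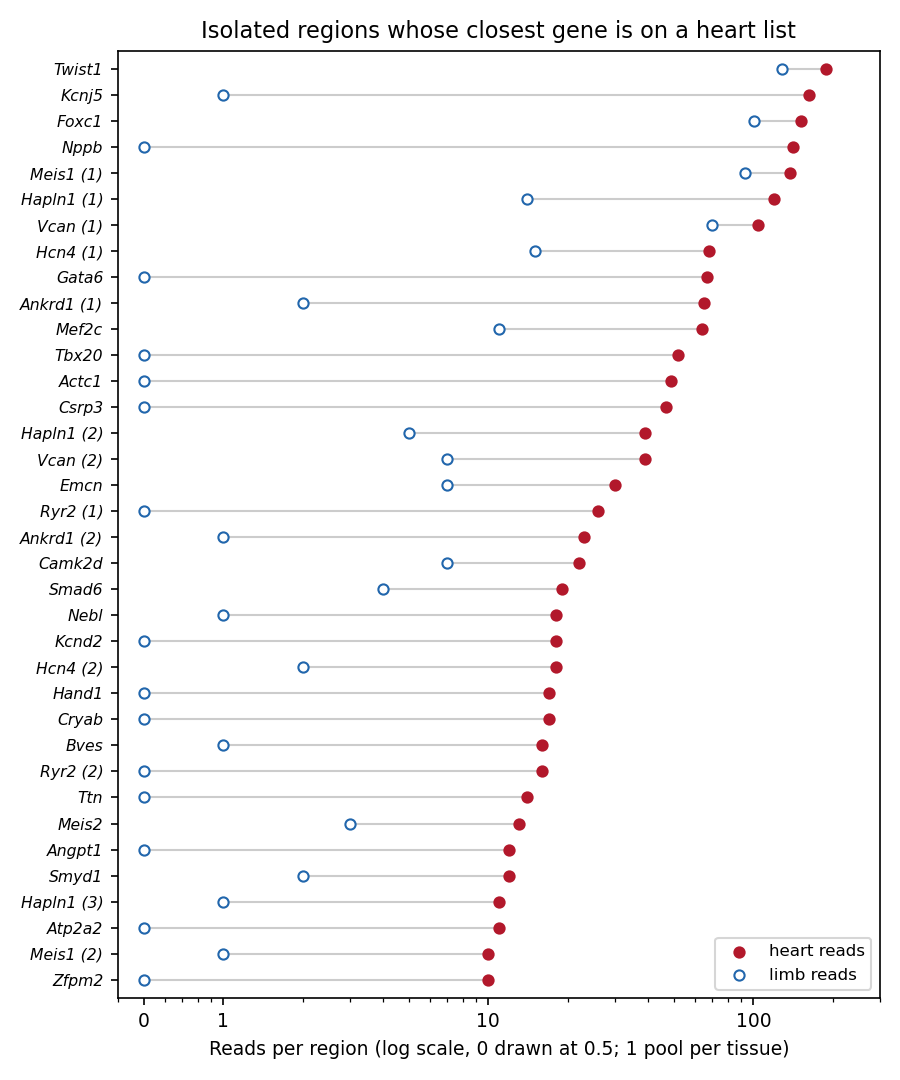
Heart reads (filled) and limb reads (open, 0 drawn at 0.5) of 36 of the 37 isolated regions whose closest protein-coding start belongs to a gene on a heart list, 1 row per region, numbered where a gene has several, log scale, 1 pool per tissue. Nppb, Gata6, Tbx20, Actc1 and Csrp3 have 47 to 141 heart reads and 0 limb reads, while Twist1, Foxc1, the first Meis1 and the first Vcan region have limb reads close to their heart reads.

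Cardiac transcription factor genes were closest to 10 isolated regions of 9 genes, and their median tissue-specificity index was 0.735. The z-test called 5 of them, against 78.5% over all heart TSTRs, and 6 reached 4-fold, against 58.8%. The region near Gata6, a zinc finger factor of heart and endoderm, had 67 heart and 0 limb reads. Its heart to limb ratio was 19.3 against the floor of 3 limb reads (exact interval from 15.3). That region lay 1721 bp beyond the 3′ end of the gene. The region near Tbx20, a T-box factor needed for growth of the heart chambers, had 52 heart and 0 limb reads and lay 169 bp upstream of the start. The region near Mef2c, a MADS-box factor of muscle, had 64 heart and 11 limb reads, a ratio of 5.04 (95% exact interval 2.63 to 10.6).

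The other regions near transcription factor genes ranged widely. Near Hand1, a bHLH factor of the early ventricle, the region 171 bp upstream had 17 heart and 0 limb reads. The long region near Foxc1, a forkhead factor of the outflow tract and vessels, had 151 heart and 101 limb reads, a ratio of 1.29 whose interval (0.999 to 1.68) includes 1. The region 1026 bp upstream of Meis1, a homeodomain cofactor present in both tissues, had 137 heart and 93 limb reads, a ratio of 1.28 (0.973 to 1.68). The regions with fewest reads were a second Meis1 region (10 heart and 1 limb), Zfpm2, a GATA cofactor (10 and 0), Smyd1, a muscle methyltransferase (12 and 2), and Meis2 (13 and 3).

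Sarcomere and muscle structure genes were closest to 8 isolated regions of 7 genes. All 8 were called by the z-test (78.5% over all heart TSTRs) and reached 4-fold (58.8% over all), and 5 of the 8 had no limb read. The median index was 1. The region near Actc1, cardiac alpha-actin, lay 34518 bp upstream, with Aqr as the nearest gene body at 12289 bp. It had 49 heart and 0 limb reads, a ratio of 14.1 against the limb read floor given above (exact interval from 11.1). The region near Csrp3, a LIM protein of the Z disc, lay 173 bp beyond the 3′ end and had 47 and 0 reads. Ankrd1, a stretch-responsive ankyrin repeat protein, had isolated regions on both sides, with 65 heart and 2 limb reads 546 bp beyond its end and 23 and 1 reads 9493 bp upstream.

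Other regions of the group were small. The region near Nebl, nebulette of the Z disc, had 18 heart and 1 limb reads. Near Cryab, a small heat shock protein that binds desmin, there were 17 heart reads and near Ttn, titin, 14, both with 0 limb reads. The Ttn region lay 1413 bp beyond the end of another gene, Ccdc141. No limb TSTR had a gene of this list as its closest start, and 23 clustered heart TSTRs did. A region with 60 heart and 0 limb reads lay closest to the start of Usp53 but 1569 bp beyond the end of Myoz2, a Z-disc protein that binds calcineurin.

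Genes of calcium handling, ion channels and conduction were closest to 10 isolated regions of 8 genes, against 5 clustered heart and 2 limb TSTRs. The z-test called 9 of the 10, against 78.5% over all heart TSTRs, and 7 reached 4-fold, against 58.8%. The region near Nppb, which encodes the B-type natriuretic peptide of heart muscle, had 141 heart and 0 limb reads. It began 194 bp beyond the end of the gene. Its heart to limb ratio was 40.7 against the limb read floor given above (exact interval from 32.7). The region near Kcnj5, a G protein-gated potassium channel subunit of atrium and pacemaker, had 162 heart and 1 limb reads, a ratio of 140 with a counting interval of 24.8 to 5573. At 1503 bp it was also among the 5 longest isolated regions, 1614 bp beyond the end of Kcnj5.

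Hcn4, the pacemaker channel, had isolated regions 380 bp upstream of its start (68 heart and 15 limb reads, ratio 3.92, interval 2.22 to 7.39) and 2508 bp beyond its end (18 and 2 reads). Ryr2, the calcium release channel of the sarcoplasmic reticulum, had them 25432 bp upstream (26 heart and 0 limb reads) and 1645 bp beyond its end (16 and 0). Camk2d, a calcium-dependent kinase, had 22 heart and 7 limb reads in a region that overlapped an annotated exon of the gene and was not called. Kcnd2, a voltage-gated potassium channel, had 18 and 0 reads but at a distance of 736650 bp. The region near Bves, a Popeye domain protein, had 16 and 1 reads and lay 327 bp beyond the end of its relative Popdc3, and the region near Atp2a2, the calcium pump of the sarcoplasmic reticulum, had 11 and 0.

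Endothelial genes were closest to 2 isolated regions. The region near Emcn, an endothelial sialomucin, had 30 heart and 7 limb reads, a ratio of 3.71. The region near Angpt1, a ligand of the endothelial receptor Tek, had 12 and 0 reads.

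Epicardial, cushion and signalling genes were closest to 7 isolated regions of 4 genes, 11 clustered heart and 22 limb TSTRs. Hapln1, a link protein that ties hyaluronan to proteoglycans in the cardiac jelly, had 3 isolated regions 3705 to 40232 bp upstream. The farthest had 120 heart and 14 limb reads, a ratio of 7.42 with an interval that began at 4.25, and the others had 39 and 5 and 11 and 1 reads. The neighbouring gene Vcan encodes versican, a proteoglycan of the same matrix, and its start was closest to regions with 104 heart and 70 limb reads (ratio 1.29, interval 0.941 to 1.77) and 39 and 7 reads. The second of these lay 394 bp beyond the end of Hapln1 and the first 1257 bp beyond the end of Vcan. Smad6, an inhibitor of BMP signalling, had 19 heart and 4 limb reads 109 bp upstream.

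Twist1, a bHLH factor of mesenchyme that is also on the limb list, was the only heart list gene near a region with an A/T run. That region had 188 heart and 128 limb reads, a ratio of 1.27 (1.01 to 1.60), held a run of 52 bases and lay 482 bp from a limb TSTR. Limb patterning genes (Twist1, Meis1 and Meis2) were closest to 4 isolated heart regions and to 47 limb TSTRs. None of the 4 was called by the z-test (78.5% over all heart TSTRs), and 1, the second Meis1 region, reached 4-fold (58.8% over all). Myf5 was the only gene of the skeletal muscle and cartilage list, again at a region with an A/T run, and no isolated region was closest to a gene of the red blood cell, liver or neural list. These are positions next to genes and not levels of their mRNA.

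Among the regions with no limb read, several lay near genes outside the lists. The region near Kcng2, a potassium channel subunit, had 64 heart reads and lay 150 bp beyond the end of Pqlc1. Its ratio was 18.5 against the floor of 3 limb reads (exact interval from 14.6). The region near Dusp6, a phosphatase that acts on ERK, had 59 and lay 12527 bp beyond the end of the gene. The region 161741 bp from the start of Kit, a receptor tyrosine kinase, had 58. Regions near Gprin3 and Smc2 had 55 and 53 heart reads. The 10 regions with the most heart reads and no limb read included Nppb, Gata6, Usp53, Tbx20 and Actc1. Their ratios were 14.1 or more against that floor, which follows from the heart reads by which they were chosen.

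RPKM was higher in limb than in heart in 2 isolated regions, although both are on the heart list. One was the 3110003A17Rik match near Olfr525, whose RPKM was 14.9 (heart) and 15.3 (limb). The other was at chr13:44156931-44157285, with 688 heart and 597 limb reads and an A/T run of 52 bases. Their ratios were 0.972 (0.895 to 1.06) and 0.998 (0.893 to 1.12), so neither differed from equality beyond counting error, and with equal library totals in place of the implied ones both turned to the heart side, at 1.12 and 1.15.

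The longest isolated regions combined both patterns. The longest, 1708 bp near Ywhaz, a 14-3-3 protein gene, had 201 heart and 149 limb reads, a ratio of 1.17 (0.940 to 1.45). The region near Foxc1 had 1616 bp and the region near Bambi, a decoy receptor of TGF-beta signalling, 1516 bp with 251 heart and 146 limb reads. The region near Dpysl3, a cytoskeletal regulator of neurons, had 1401 bp and 152 heart against 16 limb reads, a ratio of 8.22 (4.90 to 14.8). Among the 5 longest, the regions near Kcnj5, Dpysl3 and Bambi were called by the z-test, which called 78.5% of all heart TSTRs.

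The study's cloned elements or quantitative PCR amplicons, placed on mm9 by their primers, lay in 5 isolated regions and in 23 clustered heart TSTRs. Elements tested earlier, which the study lists by coordinates as overlapping TSTRs, were not compared here. The element named mm1073 overlapped the Actc1 region, and mm1071 overlapped the region 348494 bp from the start of Smc2. Element mm1052 and a PCR amplicon overlapped the region near Fam198b, which had 42 heart and 0 limb reads. Element mm1076 overlapped a region with 41 heart and 1 limb reads, 272472 bp from the start of Gm10287. Element mm1054 overlapped a region 16496 bp upstream of D5Ertd579e, with 51 heart and 7 limb reads and a ratio of 6.31 (2.85 to 16.5). None of the 5 held a long A/T run or a match. In the study's transgenic assays, mm1052 and mm1054 were active in heart, and mm1073, mm1071 and mm1076 were negative. The study lists an epigenomic enhancer mark for mm1052 and mm1054 and none for the negative elements. For mm1052 and mm1054 the assay is evidence of enhancer activity of the cloned stretch, which is longer than the region. Overlap with a cloned element is by itself a position and not evidence of enhancer activity.

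Few isolated heart regions lay near limb TSTRs. The gap to a limb TSTR was at most 10 kb for 8 regions, against 0 clustered heart TSTRs. Closest were the regions near Cox7a2 (221 bp, 53 heart and 29 limb reads), Twist1 (482 bp), Sucla2 (794 bp, 10 and 2 reads) and Prickle1 (1191 bp, 53 and 31 reads). Cox7a2 encodes a subunit of cytochrome c oxidase, Sucla2 a subunit of succinyl-CoA synthetase, and Prickle1 a planar polarity protein. Others were near Mon2 (36 heart and 9 limb reads), Arhgap32 (16 and 2) and Klhl13 (33 and 14). Cox7a2, Sucla2, Mon2 and Arhgap32 were named after their values were seen.

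Some regions overlapped annotated exons in the GENCODE vM1 annotation. Of the isolated regions 7 did so, and 10 overlapped a gene. Rnf213, a large ubiquitin ligase with roles in vessels, had regions of 132 heart and 18 limb reads and of 68 and 10 reads. Exons of Wnt16, a secreted signalling protein, and of the pseudogene Gm13678 lay in regions with 50 and 23 and with 47 and 21 reads. Fam124a had 13 and 2 reads, and Kat2b-ps and Camk2d are described above.

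The 356 regions lay closest to 327 protein-coding genes, of which 301 had 1 isolated region and 3 had 3. Besides Hapln1 these were Robo1, a receptor for SLIT proteins, and Rpl21-ps12. The regions near Robo1 had 17 heart and 1 limb, 11 and 2, and 10 and 0 reads at 355884 to 619166 bp upstream. Those near Rpl21-ps12 had 48 and 5, 15 and 1, and 13 and 2 reads. Regions lay on all 20 chromosomes with heart TSTRs, from 6 on chromosome 12 to 32 on chromosome 13.

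At the limit of 10000 bp, the regions just inside had gaps of 10223 bp (Robo1, 17 heart and 1 limb reads) and of 10243 and 10299 bp (the Rnf213 regions). Just outside were regions near Tecrl that share a gap of 9981 bp, with 23 and 0 and with 11 and 0 reads, and a region near Slitrk5 at 9884 bp with 13 and 1 reads. The largest gap, 40446300 bp, was that of a region on the X chromosome near Klhl13 with a run of 39 bases and 33 heart and 14 limb reads. The next largest gaps belonged to regions near Actb, beta-actin (61 and 34 reads), Rrad, a small GTPase (13 and 0), Prickle1, and Ppip5k2, an inositol phosphate kinase (55 and 29).

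The shares of isolated regions with a motif lay both above and below those of all listed regions, which include them, and were not tested. A GATA motif (AGATAA) was present in the central 300 bases of 19.4% of isolated heart regions, 23.2% of clustered heart regions and 19.4% of all 1912 listed regions. The HAND E-box was in 22.8%, against 19.6% of all listed regions, and the MEIS motif in 20.8%, against 20.2%. The NKX2-5 motif was in 17.1% against 17.8%, the TEAD motif (GGAATG) in 15.4% against 15.9%, and the myogenic E-box in 10.1% against 11.9%. The MEF2 box, the T-box motif, the ETS motif (CCGGAA) and the CArG box of serum response factor were in 4.49%, 3.65%, 2.25% and 0.843%, against 5.44%, 3.29%, 3.09% and 2.04%. The polyadenylation signal was in 37.6%, against 36.1%. Neither the motif shares nor their differences were read as binding. Median GC content was 40.8% in isolated and 41.0% in clustered heart regions, and 32.3% in the regions with a run.

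The 1912 listed regions had at least 10 reads in their own tissue, and the counts, lengths and RPKM imply totals of 222362239 heart and 192488089 limb reads. Isolated regions made up 42.7% of heart TSTRs. They held 43.3% of the heart reads in these TSTRs and 64.0% of the limb reads. With 1 pool per tissue, every interval above covers counting error in these libraries only.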

How the data were processed

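Heart and limb at embryonic day 11.5 were each measured in 1 pooled sample. The authors deposited read counts and RPKM of both tissues for the regions of each tissue's list. Counts are not normalized, and RPKM, per the authors, divides them by region length and total reads. The submitters' processing notes name CASAVA 1.8, Bowtie2 (version not given in the sources used here) and mm9. Per the study's methods, repetitively mapped reads were excluded, alignments extended, regions of at least 10 reads called without strand, and those overlapping known genes, mRNAs or ESTs removed. The smallest heart count was 10. Excluding repetitive reads and extending alignments can change the counts of short or repeated regions.

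Totals of 222362239 heart and 192488089 limb reads were computed from counts, RPKM and length, and 3 reads, the detection floor, are 1.35e-06% and 1.56e-06% of them. Coordinates are as deposited, length is end minus start, and sequence windows count from 1. Positions were compared with GENCODE vM1 on NCBIM37. The two-proportion z-test (threshold 0.01) has the form the methods give but uses these implied totals, whereas the methods name mappable reads outside ribosomal regions. It was tested on simulated data. Ratios have exact Clopper-Pearson 95% intervals. edgeR's quasi-likelihood test and DESeq2 could not be fitted without replicates. A/T runs of at least 30 bases and matches (blastn 2.17.0, at least 90% identity, at least 50 coding bases, at most 5 genes, or the mitochondrial genome) were defined after the data were seen. Members, gene lists, motifs and rules were chosen with earlier results of these data known. Regions named are those with most heart reads (10), most heart reads at 0 limb reads (10), highest heart RPKM (5), greatest length (5), largest gap (5), higher limb RPKM, a heart list gene, a study element, an exon (5), a gap next to the limit, or a gene with 3 regions. The primer search allowed 4 mismatches per pair. Python 3.11.15, pandas 2.3.3, scipy 1.17.1, R 4.3.3 and edgeR 4.0.16 were used. Alternatives were other gaps, totals, tests, filters, distances and windows. Strand, chromatin and mRNA levels were not analysed here. Regions near some genes are counted but not reported singly here.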

Additional observations from a re-analysis of the deposited data

How the results depend on the processing

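No replicate could be left out, and no paired analysis was possible because each tissue is 1 sample. The number of isolated regions was 316 to 376 with gaps of 5000 to 50000 bp. The count called by the z-test was 236, and edgeR's exact test called 76 when the variation between samples, which these data cannot give, was set to a coefficient of 0.4. Among members with at least 20 heart reads, 146 were called by construction of the smaller set, the share without limb reads was 9.72%, median heart RPKM 0.401 and the median tissue-specificity index 0.460. Counting at most 1 limb read gave 27.0%. Without regions with a run or a match, an alternative chosen after seeing the data, median heart RPKM was 0.265, the median index 0.677 and the median length 331.5 bp. The median distance was 17376 bp to any annotated start and 4600 bp to a gene edge. A GATA motif was in 27.5% of whole regions and 47.5% of windows of 1000 bp, which are longer. A limit of 50000 bp left 17 regions near a limb TSTR instead of 8. Runs of at least 20 and 40 bases were in 53 and 35 isolated regions. Counts of calls under other totals stayed within 1.5 times: equal totals gave 300 z-test calls and 195 at 4-fold. Totals scaled to listed reads gave 340 z-test calls. Shares over all heart TSTRs are not given for any of these alternative counts of calls, so they describe the settings only. Both of these other totals raised every ratio of a named region, so they could not reverse a region called higher in heart. Totals that would lower the ratios were not tried.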
